A study of Mus musculus with 20 samples.

Results

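The sphingosine 1-phosphate and lysophosphatidate receptors of nerve endothelium were followed as a set of 10 genes, taken as the rows whose gene symbol was S1pr1, S1pr2, S1pr3, S1pr4, S1pr5, Lpar1, Lpar4, Lpar6, Sphk1 or Spns2. All 10 were found among the 55376 genes of each count table. Bulk RNA-seq was done on endothelial cells sorted from sciatic nerves of adult mice. The Tomato experiment used a Rosa26 tdTomato reporter switched on by Cdh5(PAC)-CreERT2, a driver active in endothelium, in Plxnd1 wild-type mice. Its 3 groups were uninjured nerve (intact, 5 libraries) and the bridge region of the lesion, taken 7 days (7 dpi, 5 libraries) or 14 days (14 dpi, 4 libraries) past the injury. The Cherry experiment used a Kdr-Cherry reporter and bridge tissue at 7 dpi alone, from Plxnd1 fl/fl mice with a Cdh5-driven inducible Cre that deletes the gene in endothelium (KO, 3 libraries), or from control mice (WT, 3 libraries). The condition labels name the injury a crush, whereas the design text speaks of a bridge region, and which kind of injury was made is not settled by these sources. Cells positive for the leukocyte antigen CD45 were gated out after enzymatic dissociation. Intact nerves are stated to have been pooled, and no label ties a library to single animals, so the p-values measure the spread between these libraries, part of which may be technical. Whether the WT mice carried Cre is not stated in the labels.

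Sphingosine 1-phosphate (S1P) is a blood-borne lipid made from sphingosine by sphingosine kinases such as Sphk1 and released from endothelium by the exporter Spns2. S1pr1, coupled to inhibitory G proteins, tightens endothelial junctions and restrains sprouting, whereas S1pr2 and S1pr3 couple to further G proteins, and S1pr2 can loosen junctions. S1pr4 and S1pr5 are best known from leukocytes, and S1pr5 also from natural killer cells and oligodendrocytes. Lysophosphatidate (LPA), made outside cells by autotaxin (Enpp2), acts on Lpar1, a receptor of the older Edg family common in mesenchymal cells, and on Lpar4 and Lpar6, receptors of the P2Y-related family found in endothelium.

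Library totals were 19.06 to 34.18 M (mega) counts in the Tomato experiment and 19.25 to 33.79 M counts in the Cherry experiment. The labels place the libraries in batches 1133 and 1292, each holding libraries of every group. Levels are CPM, counts per M counts of the library, scaled by TMM within an experiment. The low-count filter left 20409 genes in the Tomato and 16227 in the Cherry experiment, and 9 of the 10 genes passed it in both, S1pr5 being the exception. The 12 endothelial markers summed to 4288 to 10180 CPM in intact nerve, 8383 to 12680 CPM at 7 dpi and 7041 to 8216 CPM at 14 dpi, and to 13360 to 14210 CPM in KO and 12860 to 13930 CPM in WT libraries. Pecam1, Cdh5 and Kdr averaged 2292, 528 and 485 CPM at 7 dpi, against 1383, 280.0 and 299 CPM in intact nerve. Fibroblast markers were also abundant in the Tomato libraries, with sums of 9078 to 16630 CPM in intact nerve, 4434 to 19730 CPM at 7 dpi and 16250 to 35690 CPM at 14 dpi, against 840 to 3287 CPM in KO and 922 to 2293 CPM in WT libraries of the Cherry experiment. Perineurial markers summed to 2194 to 4595 CPM in intact nerve, 272 to 870 CPM at 7 dpi and 1140 to 2621 CPM at 14 dpi, against 75.3 to 108 CPM in KO and 77.5 to 124 CPM in WT libraries. Schwann cell markers summed to 544 to 993 CPM in intact nerve, 144 to 213 CPM at 7 dpi and 622 to 2382 CPM at 14 dpi. Mural markers lay between 849 and 3597 CPM in the Tomato libraries, with lymphatic endothelial markers between 216 and 766 CPM and red cell and platelet markers between 10.8 and 138 CPM. Myeloid markers summed to at most 40.1 CPM in every library but 2, 7 dpi replicate 4 with 300.4 CPM and 14 dpi replicate 3 with 1017 CPM. In bulk libraries fewer cells of a type and less RNA per cell cannot be told apart.

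S1pr1 had the highest group mean of the 10 genes when counts were divided by gene length. In intact nerve it averaged 132.6 ± 54.7 CPM per kb (SD, n = 5), followed by Lpar1 at 98.0 ± 27.8, Lpar6 at 43.1 ± 13.6, S1pr4 at 19.6 ± 5.99, Spns2 at 9.62 ± 2.99, S1pr3 at 4.26 ± 1.55, S1pr2 at 3.40 ± 0.458, Lpar4 at 2.15 ± 0.305, Sphk1 at 0.568 ± 0.219 and S1pr5 at 0.116 ± 0.185 CPM per kb. Each neighbour in this order overlapped the next in its range over libraries, apart from S1pr2 and Lpar4, and Lpar4 and Sphk1, which did not. Lpar1 stood above S1pr1 in intact replicates 3, 4 and 5, at 116.8, 125.5 and 103.5 against 109.6, 123.4 and 67.1 CPM per kb. At 7 dpi S1pr1 averaged 150 ± 43.1 CPM per kb, and its lowest library (96.8) lay above the highest of every other gene of the set. Lpar6 came next at 33.2 ± 11.2 CPM per kb and Lpar1 at 27.1 ± 13.3. Spns2 (15.8 ± 3.06), S1pr3 (13.9 ± 3.30) and Lpar4 (13.5 ± 2.67) had overlapping ranges, as had S1pr2 (7.87 ± 3.88) and S1pr4 (6.81 ± 1.62), and Sphk1 stayed low at 0.947 ± 0.0939 CPM per kb. The genes of a library share its depth and cell makeup, so these orders are descriptions.

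**Figure D1:**
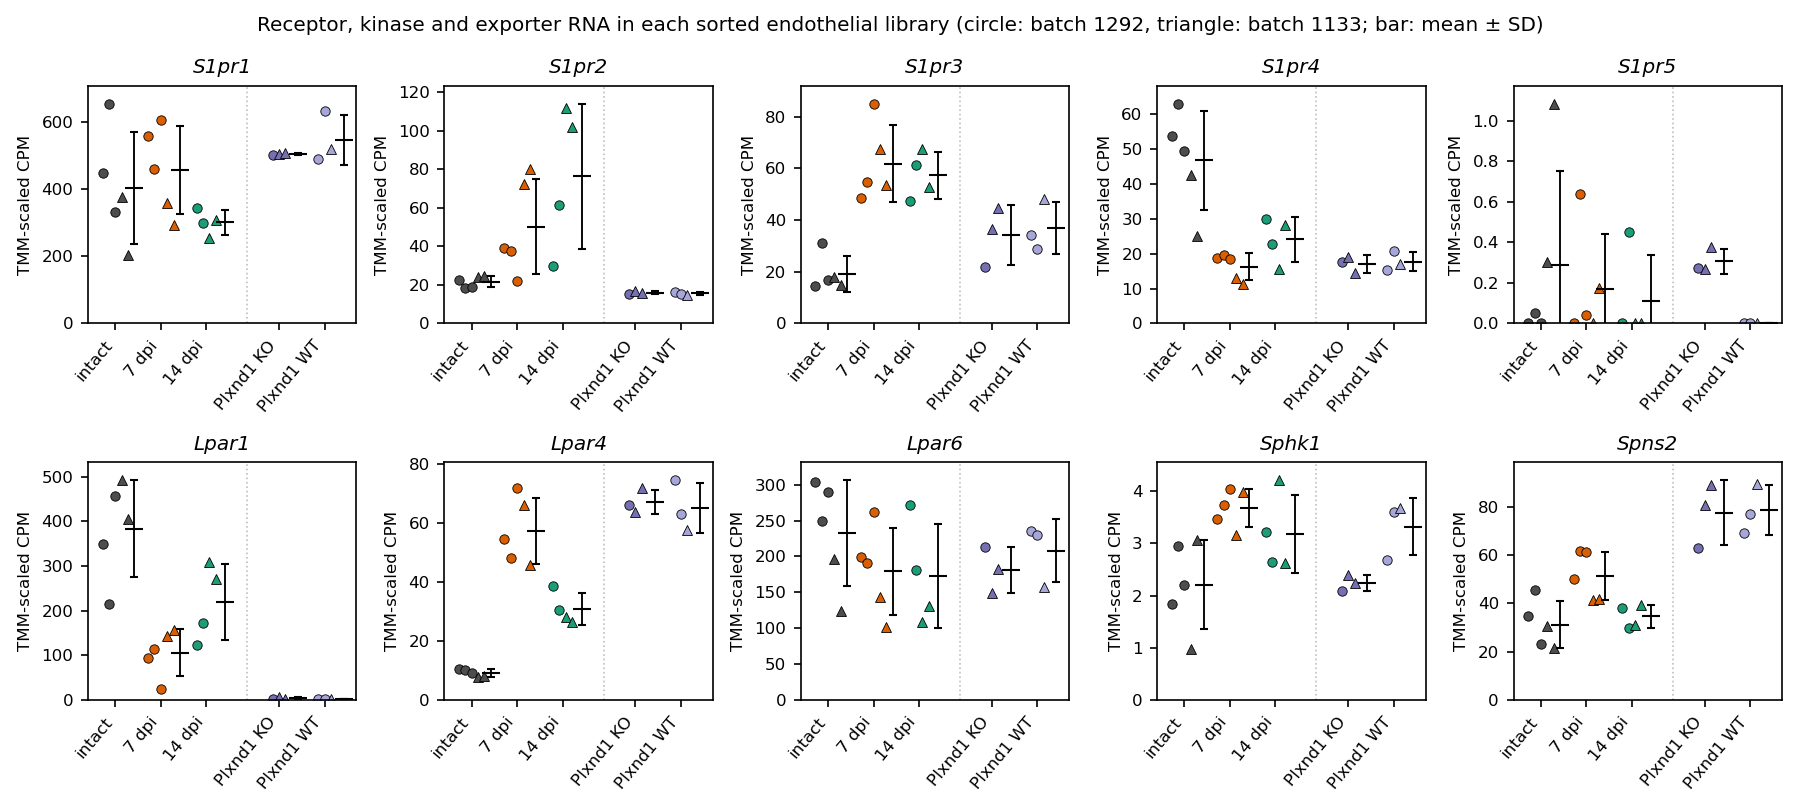
Level of each of the 10 genes in every library, in TMM-scaled CPM on axes that start at 0; each point is a library (circles batch 1292, triangles batch 1133) and the black bar beside a group is its mean ± SD, cut off at 0. Lpar4 lies between 45.8 and 71.9 CPM at 7 dpi, above every intact and 14 dpi library, whereas the means of S1pr4 and Lpar1 are lowest at 7 dpi among the 3 Tomato groups.

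The first question was how bridge endothelium at 7 dpi differed from that of intact nerve. S1pr2, S1pr3, Lpar4 and Spns2 were higher at 7 dpi and S1pr4 and Lpar1 were lower, by a quasi-likelihood F test in edgeR with batch in the model and an adjusted p under 0.05. These were 4 of the 9 tested genes higher and 2 lower, beside a background of 15.7% of all tested genes higher and 16.3% lower. The median log2 fold change of the 9 genes was 0.72, against -0.10 over all tested genes. Scaling to the endothelial markers in place of TMM shifted the median of all genes by -0.49 and changed the split of calls among all genes to 1301 higher and 6987 lower, against 3202 and 3333.

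Lpar4, an LPA receptor of the P2Y-related family, had the greatest rise. It lies at chrX:106920625-106933900 on the plus strand of GRCm38. It measured 54.6, 48.4, 71.9, 66.1 and 45.8 CPM in the 7 dpi libraries, against 10.5, 10.3, 9.14, 7.68 and 7.996 CPM in the intact libraries. The lowest 7 dpi library thus lay well above the highest intact one. This was a 6.34-fold rise, 2.66 ± 0.15 on the log2 scale (SE; edgeR adjusted p = 2.81e-09). Taken within batches, the difference was 2.67 in batch 1133 and 2.42 in batch 1292 (log2 of CPM plus 1).

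S1pr3, at chr13:51408639-51422797 on the plus strand, rose next most. It measured 48.5, 54.5, 85.0, 67.5 and 53.6 CPM at 7 dpi, against 14.3, 31.1, 16.8, 17.98 and 14.8 CPM in intact nerve. The groups did not overlap, and intact replicate 2 was the highest intact library. This was a 3.27-fold rise, 1.71 ± 0.22 on the log2 scale (SE; edgeR adjusted p = 1.18e-05). S1pr3 shares 45 exon bases with Gm32834 on the opposite strand, a gene with 0 to 15 counts per Tomato library. The part of this overlap in the S1pr3 counts was not tested.

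S1pr4, at chr10:81497747-81500132 on the minus strand and made of 1 exon, fell. It measured 18.9, 19.5, 18.6, 12.9 and 11.2 CPM at 7 dpi, against 53.8, 63.1, 49.6, 42.5 and 25.0 CPM in intact nerve. Every 7 dpi library lay below every intact one, and the log2 fold change, with its SE, was -1.52 ± 0.18, at an edgeR adjusted p of 7.6e-06. Since S1pr4 is known from leukocytes, the lymphocyte and natural killer markers were read beside it. The 8 markers together summed to 1.69 to 3.20 CPM at 7 dpi and 3.58 to 7.17 CPM in intact nerve, with Gzma at 0 counts in all 7 dpi and Nkg7 at 0 counts in all intact libraries. In each of these libraries S1pr4 alone exceeded that sum, which cannot place S1pr4 in a cell type, since RNA per cell is unknown. Like S1pr4, the sums were lower at 7 dpi without overlap, but the B cell gene Cd79a made up most of them in intact nerve. The sum averaged 2.17 CPM at 7 dpi and 5.45 CPM in intact nerve, of which Cd79a held 1.13 and 4.13 CPM. Nkg7 and Klrb1c had higher means at 7 dpi (0.0966 and 0.366 CPM) than in intact nerve (0 and 0.203 CPM). The other markers had lower means at 7 dpi. The part of lymphocyte RNA in the fall of S1pr4 was not tested. Of the 3 lymphocyte markers tested at 7 dpi, 1 (Cd79a) fell and none rose.

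The promoters of the 2 receptors that rose most and of the one S1P receptor that fell are shown, from 250 bases before to 50 bases after the start in RefSeq (GRCm38.p6), read 5′ to 3′ on the gene's strand. Capitals mark matches, on either strand, to 4 short motifs: CACCC, which Krüppel-like factors bind, TGANTCA, which AP-1 binds, ACGTG, which hypoxia-inducible factors bind, and GGAATG, which TEAD factors bind. The windows are chr13:51408368-51408667 (plus strand) for S1pr3, chrX:106920375-106920674 (plus strand) for Lpar4 and chr10:81500088-81500387 (minus strand) for S1pr4.
S1pr3: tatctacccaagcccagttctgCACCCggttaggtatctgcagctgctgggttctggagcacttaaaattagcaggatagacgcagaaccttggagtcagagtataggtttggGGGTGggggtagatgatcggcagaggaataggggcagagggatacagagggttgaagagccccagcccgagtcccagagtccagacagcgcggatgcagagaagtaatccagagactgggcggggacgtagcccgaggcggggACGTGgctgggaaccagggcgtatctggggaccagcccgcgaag
Lpar4: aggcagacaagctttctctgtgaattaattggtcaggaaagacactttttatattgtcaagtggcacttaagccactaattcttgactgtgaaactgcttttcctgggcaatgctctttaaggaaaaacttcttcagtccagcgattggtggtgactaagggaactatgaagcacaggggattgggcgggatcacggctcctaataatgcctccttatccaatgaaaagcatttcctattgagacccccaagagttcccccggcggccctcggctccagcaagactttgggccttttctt
S1pr4: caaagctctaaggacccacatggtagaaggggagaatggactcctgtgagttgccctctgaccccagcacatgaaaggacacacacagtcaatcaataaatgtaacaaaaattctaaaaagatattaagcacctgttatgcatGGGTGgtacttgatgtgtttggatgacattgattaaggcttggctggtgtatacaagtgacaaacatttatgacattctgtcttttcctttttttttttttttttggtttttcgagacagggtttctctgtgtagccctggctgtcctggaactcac
S1pr3 held 2 matches to CACCC and 1 to ACGTG, S1pr4 held 1 match to CACCC, and Lpar4 held no match to any of the 4; no match overlapped another. Of 32851 RefSeq promoter windows of 300 bases, CACCC occurred in 57.5%, ACGTG in 19.6%, GGAATG in 14.7% and TGANTCA in 7.81%. A promoter window was found for 9 of the 10 genes.

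S1pr2 (chr9:20962361-20976781, minus strand) rose with a wide spread between libraries. It measured 39.0, 37.6, 22.2, 72.4 and 80.1 CPM at 7 dpi, against 22.7, 18.4, 18.9, 23.9 and 24.8 CPM in intact nerve. The groups overlapped through 7 dpi replicate 3. The log2 fold change was 1.07 ± 0.23 with its SE, and the edgeR adjusted p was 0.0014. The log2 fold change was 1.68 when batch 1133 was fitted alone, 0.73 in batch 1292 alone (adjusted p = 0.0793) and 0.62 when scaled to the endothelial markers (adjusted p = 0.039). Within 7 dpi S1pr2 ran with the fibroblast marker sum. Replicate 3 had the lowest sum of the 5 (4434 CPM), and replicates 4 and 5, both of batch 1133, the highest (19390 and 19730 CPM). Between the groups the sums overlapped, with means of 13370 CPM at 7 dpi and 12080 CPM in intact nerve. Of the 9 fibroblast markers, 5 rose and 1 fell at 7 dpi. The one that fell, Dcn, averaged 3560 CPM at 7 dpi and 9687 CPM in intact nerve, where it made up most of the sum. The part of fibroblast RNA or batch in the S1pr2 result was not tested.

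Lpar1 (chr4:58435255-58553628, minus strand), the Edg-family LPA receptor, fell. It measured 94.0, 114, 23.7, 143 and 156 CPM at 7 dpi, against 349, 215, 457, 491 and 405 CPM in intact nerve. The groups did not overlap, and 7 dpi replicate 3 was the lowest library. With batch in the model, the log2 fold change, with its SE, was -1.92 ± 0.32, at an edgeR adjusted p of 0.000168. All 4 perineurial markers fell as well, Cldn1 by 2.12, Itgb4 by 2.98 and Lypd2 by 3.57 on the log2 scale. In single libraries Lpar1 and the perineurial sum were low together: 7 dpi replicate 3 had the least of both (272 CPM of perineurial markers), and intact replicate 4 the most (4595 CPM). Schwann cell markers moved the same way between groups, with 6 of 9 lower and none higher at 7 dpi, Mbp at 8.33 CPM at 7 dpi and 182 CPM in intact nerve, and sums that did not overlap. Within groups Lpar1 also ran with the fibroblast sum. That sum was lowest in 7 dpi replicate 3 (4434 CPM) and, among intact libraries, highest in replicate 4 (16630 CPM). The fibroblast sums of intact and 7 dpi libraries overlapped. The part of perineurial, fibroblast or Schwann cell RNA in the fall of Lpar1 was not tested.

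**Figure D2:**
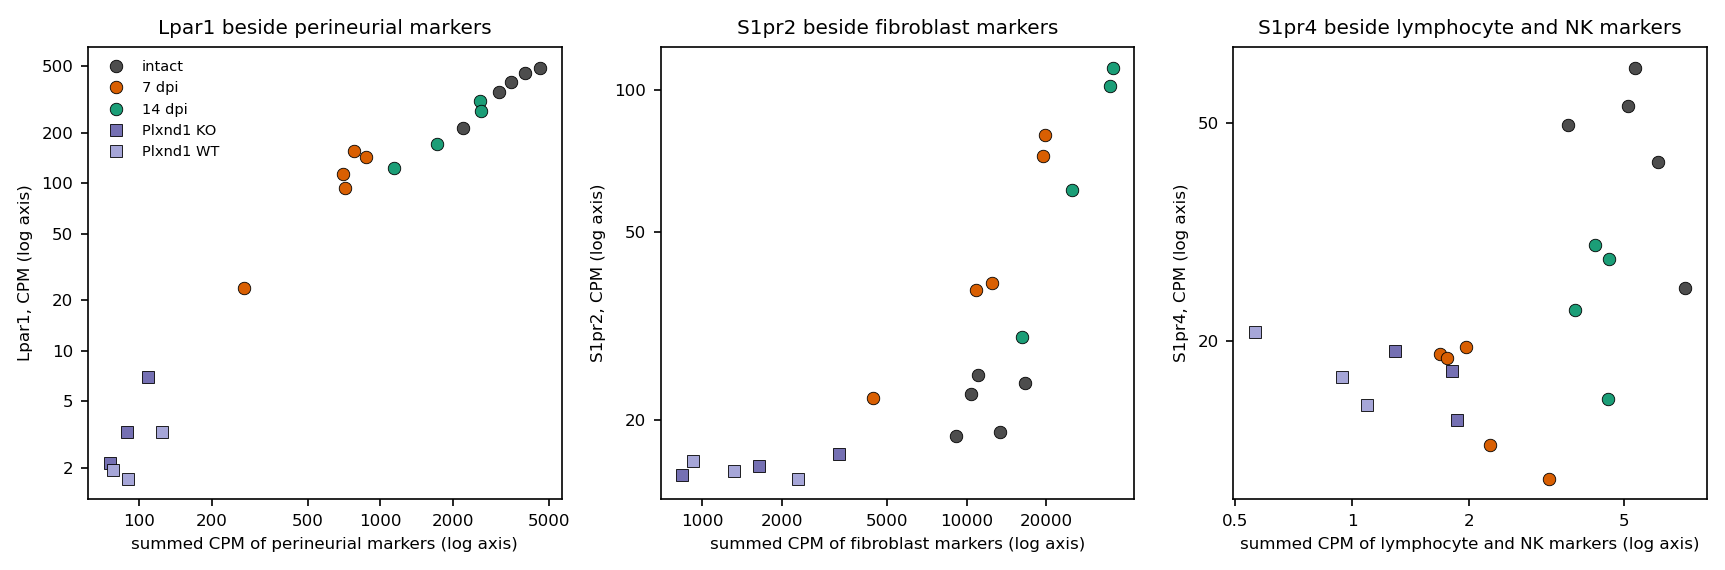
Level of Lpar1, S1pr2 and S1pr4 in each library (vertical, CPM, log axis) against the summed CPM of the perineurial, fibroblast, and lymphocyte and NK marker lists (horizontal, log axes); circles are Tomato and squares Cherry libraries, which were normalized separately. Lpar1 is at 491 CPM where perineurial markers sum to 4595 CPM and at 23.7 CPM where they sum to 272 CPM. The lymphocyte and NK sums stay at or below 7.17 CPM in all libraries.

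Spns2 (chr11:72451638-72489904, minus strand), the endothelial S1P exporter, measured 50.1, 61.7, 61.2, 41.5 and 41.9 CPM at 7 dpi, against 34.9, 45.5, 23.1, 30.7 and 21.7 CPM in intact nerve. The groups overlapped through intact replicate 2. The log2 fold change was 0.72 ± 0.18 with its SE, and the edgeR adjusted p was 0.00494. The call ended when counts were scaled to the endothelial markers (0.27, adjusted p = 0.198), in batch 1133 alone (0.68, adjusted p = 0.257) and with Y-linked genes as a covariate (0.45, adjusted p = 0.186). The Y-linked sum was 216 CPM in 7 dpi replicate 1 and at most 0.0291 CPM in the other 4 7 dpi libraries. It was 40.1 to 240 CPM in the intact libraries, so Y-linked RNA moved with the groups. This holds for every gene compared between these groups. At 14 dpi the sum was 268 and 182 CPM in replicates 1 and 2 (batch 1292). In replicates 3 and 4 (batch 1133) it was 0 CPM, so there it ran with batch. Spns2 shares 4.04% of its exon bases with Mybbp1a on the opposite strand, a gene with 1639 to 3996 counts per library at 7 dpi and 1769 to 2570 in intact nerve.

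S1pr1 (chr3:115710433-115715072, minus strand) measured 559, 462, 607, 359 and 295 CPM at 7 dpi, against 450, 656, 334, 376 and 204 CPM in intact nerve. The groups overlapped over most of their range. The log2 fold change, with its SE, was 0.18 ± 0.20, at an edgeR adjusted p of 0.575, with a 95% interval from -0.25 to 0.60, and the change was -0.28 when scaled to the endothelial markers (adjusted p = 0.147). Lpar6 (chr14:73237895-73243294, plus strand), which lies inside Rb1 on the opposite strand without shared exon bases, averaged 179 ± 60.3 CPM at 7 dpi and 233 ± 73.6 CPM in intact nerve (SD, n = 5 each). Its log2 fold change was -0.38 ± 0.16 with its SE, and the edgeR adjusted p was 0.0898. The adjusted p passed 0.05 in 6 alternatives, among them endothelial-marker scaling (-0.89, adjusted p = 0.000689), library-size scaling (-0.43, adjusted p = 0.0232), the DESeq2 Wald test (-0.38, adjusted p = 0.0474), and the fits without 7 dpi replicate 4 (-0.49) or intact replicate 5 (-0.45).

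Sphk1 (chr11:116530925-116536674, plus strand), the inducible sphingosine kinase, measured 3.48, 3.74, 4.04, 3.17 and 3.98 CPM at 7 dpi, against 1.83, 2.94, 2.21, 0.986 and 3.06 CPM in intact nerve. Every 7 dpi library lay above every intact one, by little. The log2 fold change, with its SE, was 0.74 ± 0.30, at an edgeR adjusted p of 0.0723, and without intact replicate 5 the change was 0.95 (adjusted p = 0.0285). These levels rest on 29 to 137 counts per library, and Sphk1 shares 192 exon bases with Gm29292 on the opposite strand. Gm29292 had 43 counts in intact replicate 5 and 20 in 7 dpi replicate 5, and at most 5 in the rest of these groups. Those 2 libraries had the most Sphk1 counts of their groups, 93 and 137. S1pr5 (chr9:21242912-21248443, minus strand) had 0, 13, 1, 0 and 6 counts at 7 dpi, against 0, 1, 0, 9 and 33 counts in intact nerve. S1pr5 did not pass the low-count filter and was not tested between these groups. In these libraries 3 counts make 0.0872 to 0.155 CPM. The overlapping opposite-strand gene Gm48303 had 5 counts in 7 dpi replicate 2 and 8 counts in intact replicate 5, the libraries with the most S1pr5 counts of their groups.

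At 14 dpi the comparison with the same 5 intact libraries asked which of these differences remained. S1pr2, S1pr3 and Lpar4 were higher and S1pr4 was lower, that is 3 and 1 of 9 tested genes, beside a background of 6.86% of all genes higher and 5.09% lower. The median log2 fold change of the 9 genes was 0.20, against 0.01 over all tested genes. Scaling to the endothelial markers shifted the median of all genes by -0.23 and changed the split of calls among all genes to 834 higher and 1685 lower, against 1401 and 1038.

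Lpar4 measured 38.8, 30.5, 28.1 and 26.4 CPM at 14 dpi, all above the intact range of 7.68 to 10.5 CPM. Its log2 fold change was 1.79 ± 0.16 with its SE, and the edgeR adjusted p was 2.09e-06. S1pr3 measured 47.4, 61.3, 67.7 and 52.7 CPM, again above every intact library, with a log2 fold change of 1.61 ± 0.23 (SE; edgeR adjusted p = 0.000135). Both receptors therefore remained above the intact range.

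S1pr2 measured 29.9, 61.4, 112 and 102 CPM at 14 dpi, against 18.4 to 24.8 CPM in intact nerve. Its log2 fold change, with its SE, was 1.58 ± 0.24, at an edgeR adjusted p of 0.000268, and the groups did not overlap. The 14 dpi libraries lay in the order of their fibroblast marker sums at the ends, with replicate 1 lowest in both (16250 CPM) and replicate 3 highest in both (35690 CPM), and 7 of the 9 fibroblast markers rose. The part of fibroblast RNA in this result was not tested. Fitted alone, batch 1133 gave 2.20 and batch 1292 gave 1.18. The 14 dpi libraries of these batches differed in Y-linked RNA as well.

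S1pr4 measured 29.9, 22.8, 15.7 and 28.2 CPM at 14 dpi, and intact replicate 5, at 25.0 CPM, was the only intact library within that range. The log2 fold change was -0.86 ± 0.20 with its SE, and the edgeR adjusted p was 0.00718. In batch 1133 alone, whose 14 dpi libraries had a Y-linked sum of 0 CPM, the change was -0.57 (adjusted p = 0.453). Lpar1 measured 124, 173, 309 and 271 CPM, with a log2 fold change of -0.96 ± 0.34 (SE; edgeR adjusted p = 0.0773), which passed 0.05 in the fit of these 2 groups alone (adjusted p = 0.014) and without the low-count filter (adjusted p = 0.000153). S1pr1 averaged 302 ± 37.1 CPM at 14 dpi (SD, n = 4), with a log2 fold change of -0.31 ± 0.22 (SE; edgeR adjusted p = 0.443). Scaled to the endothelial markers, S1pr1 (-0.51, adjusted p = 0.0417) and Lpar6 (-0.59, adjusted p = 0.0465) were called lower. With TMM the log2 fold change was -0.36 for Lpar6, 0.53 for Sphk1 and 0.20 for Spns2, with edgeR adjusted p from 0.218 to 0.615. S1pr5 had 0, 12, 0 and 0 counts at 14 dpi.

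**Figure D3:**
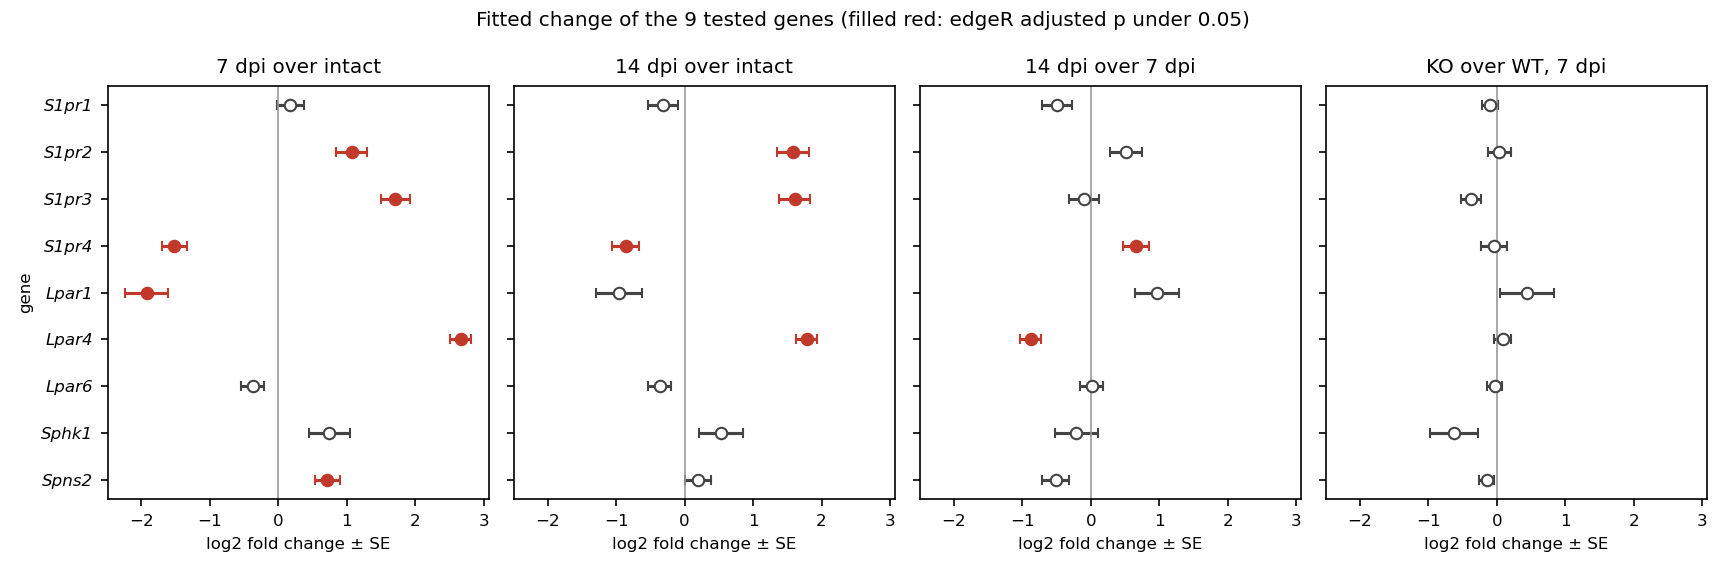
Fitted log2 fold change ± SE (horizontal) of the 9 tested genes in the 4 comparisons, with batch in the model; filled red points have an edgeR adjusted p under 0.05. Lpar4 stands at 2.66 for 7 dpi over intact and 1.79 for 14 dpi over intact, and all 9 points of the KO over WT panel are open.

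Between 14 dpi and 7 dpi, Lpar4 fell and S1pr4 rose, 1 gene in each direction, beside a background of 4.2% of all genes lower and 5.73% higher. Lpar4 at 14 dpi (26.4 to 38.8 CPM) lay below every 7 dpi library (45.8 to 71.9 CPM), with a log2 fold change of -0.88 ± 0.15 (SE; edgeR adjusted p = 0.00164). With either batch fitted alone it was not called, at -0.998 in batch 1133 (adjusted p = 0.157) and -0.78 in batch 1292 (adjusted p = 0.0575). S1pr4 had a log2 fold change of 0.66 ± 0.19 (SE; edgeR adjusted p = 0.038). That call ended when any one of 7 libraries was left out, namely each of the 5 7 dpi libraries and 14 dpi replicates 1 and 4, with adjusted p of up to 0.121, and without 14 dpi replicate 4 the change was 0.41. It ended also in each batch alone and with no batch term. Spns2 at 14 dpi (30.0 to 39.4 CPM) lay below every 7 dpi library (41.5 to 61.7 CPM), with a log2 fold change of -0.51 ± 0.19 (SE; edgeR adjusted p = 0.109), and passed 0.05 without 14 dpi replicate 4 (-0.66, adjusted p = 0.0379), with library-size scaling, with the DESeq2 Wald test and in the 2 groups alone. Lpar1 had a log2 fold change of 0.97 ± 0.33 (SE; edgeR adjusted p = 0.0732), and without 7 dpi replicate 3 it was 0.74 (adjusted p = 0.0424). It passed also with endothelial-marker scaling (1.18) and without the low-count filter (0.99). S1pr1 (-0.49), S1pr2 (0.51), S1pr3 (-0.10), Lpar6 (0.01) and Sphk1 (-0.21) had edgeR adjusted p from 0.191 to 0.982. S1pr1 passed 0.05 with the DESeq2 Wald test (-0.51, adjusted p = 0.0469) and in the 2 groups alone (-0.50, adjusted p = 0.0356), and S1pr2 passed with endothelial-marker scaling (0.74, adjusted p = 0.0487). Scaling to the endothelial markers shifted the median of all genes by 0.26, changed the split of all calls to 2408 higher and 418 lower, against 1170 and 857, and turned S1pr3 to 0.17 and Sphk1 to 0.04.

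The makeup of each receptor family was described as the share of each receptor in the family's summed CPM per kb. S1pr1 made up 82.1 ± 2.74% of the S1P receptor sum in intact nerve, 83.1 ± 5.04% at 7 dpi and 73.8 ± 5.15% at 14 dpi (SD, n = 5, 5 and 4). The share of S1pr4 was 12.5 ± 1.69% in intact nerve, 3.83 ± 0.455% at 7 dpi and 7.47 ± 1.57% at 14 dpi. S1pr3 held 1.82 to 3.90% in intact nerve, 5.22 to 10.1% at 7 dpi and 7.52 to 12.3% at 14 dpi. S1pr2 held 2.47 ± 1.27%, 5.05 ± 3.54% and 9.04 ± 4.75% in the same order of groups. S1pr4 was thus second in the family in every intact library, and S1pr3 stood above it in every 7 dpi library.

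Among LPA receptors, Lpar1 made up 66.8 ± 11.1% of the sum in intact nerve, 36.5 ± 18.2% at 7 dpi and 57.3 ± 17.8% at 14 dpi. Lpar6 held 30.4 ± 10.9%, 44.9 ± 15.8% and 34.3 ± 16.3%. Lpar4 held 1.55 ± 0.485% in intact nerve, 18.2 ± 3.57% at 7 dpi and 7.71 ± 1.86% at 14 dpi. The wide spread of Lpar1 within groups ran with the perineurial and the fibroblast sums given above. Lpar2, Lpar3 and Lpar5 each stayed below 1% on average in every Tomato group.

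**Figure D4:**
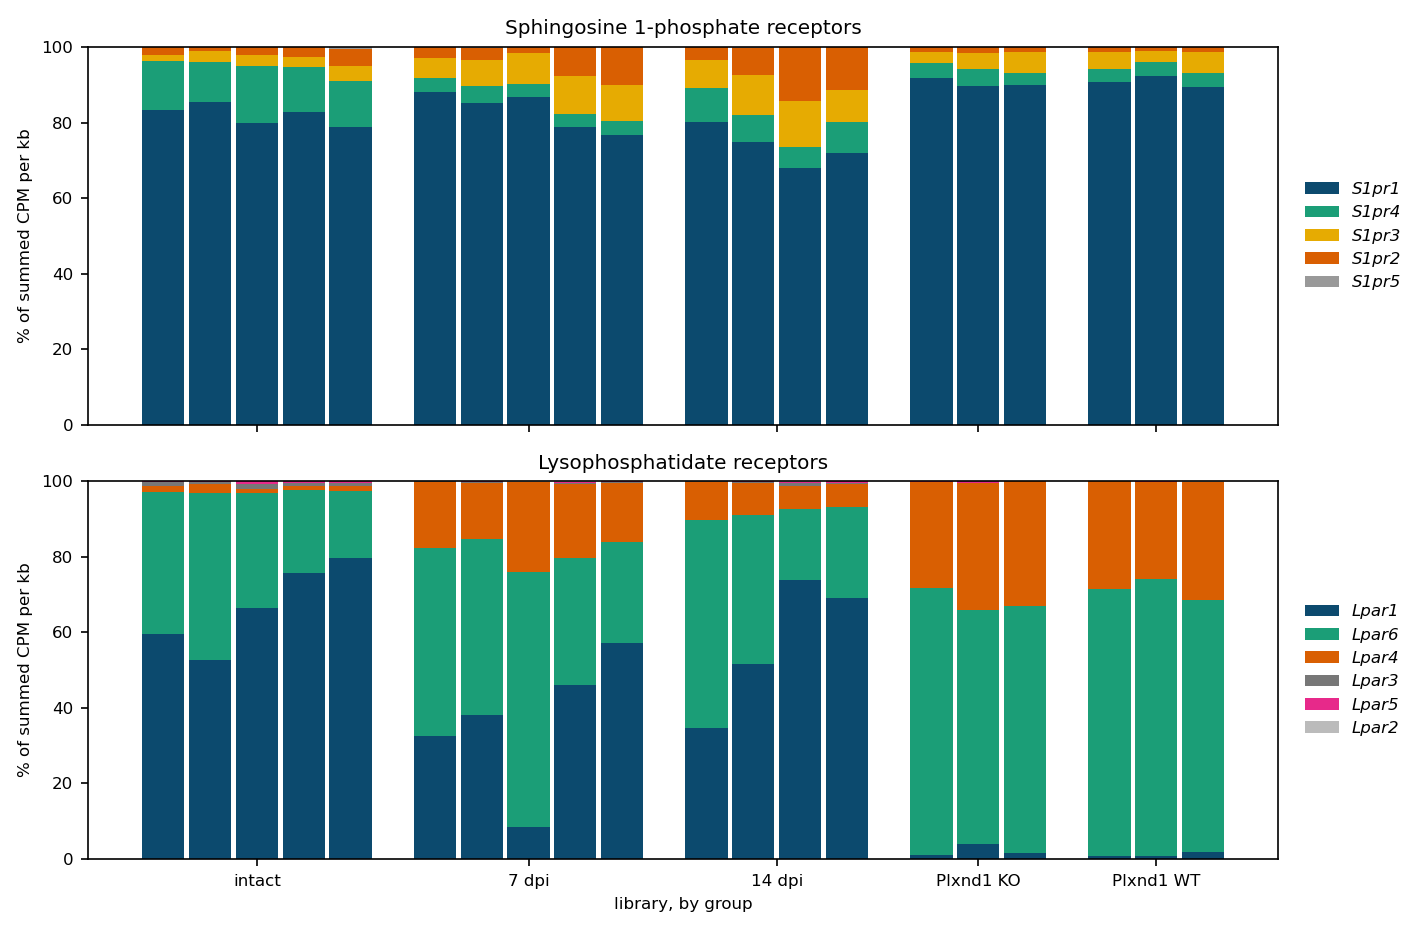
Share of each receptor in the summed CPM per kb of its family (vertical, percent), 1 stacked bar per library in each group. S1pr1 takes most of every bar of the S1P family; the Lpar4 share averages 18.2% at 7 dpi and 1.55% in intact nerve, and Lpar1 nearly disappears from the Cherry bars, with 2.19% in KO and 1.16% in WT.

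For the deletion of Plxnd1, the semaphorin receptor of vessel patterning, Plxnd1 itself (chr6:115954811-115995005, minus strand) was read first. It measured 131.4, 160.5 and 160.1 CPM in KO libraries, against 350, 324 and 344 CPM in WT libraries. Its log2 fold change, with its SE, was -1.23 ± 0.10, at an edgeR adjusted p of 0.000129. The table sums all exons of Plxnd1, and which exons are deleted is not stated in the labels.

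None of the 9 tested genes of the set was called between KO and WT, with edgeR or with the DESeq2 Wald test. The background of called genes was 0.308% of all tested genes, or 50 genes in either direction. Of the 9 genes, 1 (S1pr3) had an unadjusted edgeR p under 0.05, beside 1868 of all 16227 tested genes. The median log2 fold change of the 9 genes was -0.04, against -0.01 over all tested genes. Library-size scaling changed the split of all calls to 16 higher and 36 lower, against 21 and 29.

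S1pr3 measured 21.9, 36.6 and 44.7 CPM in KO libraries, against 34.1, 28.7 and 48.3 CPM in WT libraries. With batch in the model its log2 fold change was -0.38 ± 0.15 with its SE, and the edgeR adjusted p was 0.349. The 95% interval of the change ran from -0.70 to -0.06, and the group ranges overlapped. Sphk1 measured 2.08, 2.40 and 2.24 CPM in KO libraries, against 2.69, 3.603 and 3.68 CPM in WT libraries. Its groups did not overlap, on 38 to 96 counts per library, and its log2 fold change, with its SE, was -0.63 ± 0.35, at an edgeR adjusted p of 0.51. S1pr1 averaged 505 ± 3.34 CPM in KO and 548 ± 75.1 CPM in WT libraries (SD, n = 3 each), with a 95% interval of the log2 fold change from -0.34 to 0.15. The intervals were -0.18 to 0.36 for Lpar4, -0.27 to 0.21 for Lpar6, -0.38 to 0.09 for Spns2, -0.33 to 0.40 for S1pr2, -0.45 to 0.38 for S1pr4 and -0.41 to 1.31 for Lpar1. S1pr5 had 5, 9 and 10 counts in the KO libraries, against 0 in each WT library. It did not pass the low-count filter and was not tested. Set against a floor of 3 counts in each WT library (0.113 to 0.123 CPM), the KO mean of 0.308 CPM was 2.62-fold higher. That ratio allows for counting error in the WT zeros alone. It allows neither for error in the KO counts nor for the spread between libraries, so it is no lower bound. Since S1pr5 is known from natural killer cells, the lymphocyte and natural killer markers were read beside it. They summed to 1.29 to 1.86 CPM in KO and 0.563 to 1.09 CPM in WT libraries, without overlap. Gzma, a natural killer and T cell protease, had 15 counts over the KO and 1 over the WT libraries, and the B cell gene Ms4a1 had 13 counts in KO and 2 in WT. Other markers differed less. Cd79a had 57 counts in KO and 47 in WT, Klrb1c 8 and 2, and Nkg7 6 and 3. Their part in the S1pr5 counts was not tested.

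The Cherry libraries at 7 dpi were set beside the Tomato libraries at 7 dpi, as a description only, since reporter and normalization differ. Lpar4 measured 57.9 to 74.7 CPM in the 3 WT Cherry libraries and 45.8 to 71.9 CPM in the Tomato libraries. S1pr4 measured 15.3 to 20.8 CPM in the WT Cherry libraries and 11.2 to 19.5 CPM in the Tomato libraries. For these receptors the ranges overlapped, as they did for S1pr1, Lpar6 and Sphk1. Spns2 was higher in every WT Cherry library, with 69.1 to 89.6 CPM against 41.5 to 61.7 CPM in the Tomato libraries. Lpar1 measured 1.73 to 3.27 CPM in the WT Cherry libraries and 23.7 to 156 CPM in the Tomato libraries. S1pr2 measured 15.0 to 16.4 CPM in the WT Cherry libraries and 22.2 to 80.1 CPM in the Tomato libraries. S1pr3 measured 28.7 to 48.3 CPM in the WT Cherry libraries and 48.5 to 85.0 CPM in the Tomato libraries. Lpar1, S1pr2 and, by a narrow gap, S1pr3 thus lay lower in every WT Cherry library. In these libraries the perineurial sum was at most 124 CPM and the fibroblast sum at most 2293 CPM. The part of such RNA in these gaps was not tested. Among the Tomato libraries at 7 dpi, S1pr3 was highest in replicate 3, which had the lowest fibroblast (4434 CPM) and perineurial (272 CPM) sums.

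Other genes of the pathways were read from 5 lists. Their median log2 fold changes at 7 dpi were -0.31 for sphingolipid synthesis and S1P breakdown, -0.54 for carriers and exporters, 0.06 for other LPA receptors and enzymes, -0.08 for regulators of S1pr1 and 0.31 for other endothelial receptors, against -0.10 over all tested genes. The counts of called genes in these lists stand beside 15.7% of all tested genes higher and 16.3% lower at 7 dpi over intact. For 14 dpi over intact the shares were 6.86% and 5.09%, and for 14 dpi over 7 dpi 5.73% and 4.2%. In sphingolipid synthesis and S1P breakdown, 2 of 15 genes rose at 7 dpi and 7 fell. Sptlc2, a subunit of the serine palmitoyltransferase that starts sphingolipid synthesis, rose by a log2 fold change of 0.69 ± 0.15, and Degs1, the ceramide desaturase, by 0.43 ± 0.12 (SE). Sgpp2, an S1P phosphatase, fell by 3.97 on the log2 scale to 5.65 CPM at 7 dpi, against 88.8 CPM in intact nerve (edgeR adjusted p = 8.52e-07). The ceramide synthase Cers6 fell by 1.43 and the other S1P phosphatase Sgpp1 by 0.89. Sphk2, the second sphingosine kinase, averaged 22.7 CPM at 7 dpi and 20.3 CPM in intact nerve (edgeR adjusted p = 0.523), and the S1P lyase Sgpl1 averaged 62.5 CPM at 7 dpi and 56.6 CPM in intact nerve (edgeR adjusted p = 0.732). At 14 dpi over intact no gene of this list rose and 2 fell, Sgpp2 by 2.37 and the ceramidase Acer2 by 1.11. At 14 dpi over 7 dpi 3 rose and none fell. Sgpp2 averaged 15.95 CPM at 14 dpi and 5.65 CPM at 7 dpi (edgeR adjusted p = 0.013), and Sgpp1 rose by 0.83 and Acer3 by 0.66 on the log2 scale.

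Among S1P carriers and other exporters, Mfsd2a, a lipid transporter of barrier endothelium, and Abca1, a lipid exporter, were the 2 of 5 tested genes called at 7 dpi. Mfsd2a averaged 13.6 CPM at 7 dpi and 377 CPM in intact nerve, and fell by 4.92 on the log2 scale (edgeR adjusted p = 5.8e-07). At 14 dpi it averaged 59.4 CPM, 2.62 below intact on the log2 scale and 2.31 above 7 dpi. Abca1 averaged 51.6 CPM in intact nerve, 248 CPM at 7 dpi and 181 CPM at 14 dpi, with log2 fold changes over intact of 2.31 at 7 dpi and 2.04 at 14 dpi (edgeR adjusted p = 9.18e-08 and 3.34e-06). Apom, the S1P carrier of lipoproteins, was below the filter, with 0.128 CPM at 7 dpi and 0.155 CPM in intact nerve.

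Among the other LPA receptors and LPA enzymes, 1 of 9 genes rose and 3 fell at 7 dpi, beside 15.7% and 16.3% of all tested genes. Plpp2, a lipid phosphate phosphatase, rose by 1.27 ± 0.14, whereas Plpp3, the endothelial enzyme that breaks down LPA and S1P at the cell surface, fell by 0.88 to 315 CPM, against 579 CPM in intact nerve (edgeR adjusted p = 0.000119). Lpar3 fell by 3.25 and Lpar5 by 2.99, both from levels of at most 5.03 CPM in any intact library. Lpar2 averaged 0.571 CPM at 7 dpi and 0.194 CPM in intact nerve (edgeR adjusted p = 0.204). Enpp2, which encodes autotaxin, averaged 54.1 CPM at 7 dpi and 50.1 CPM in intact nerve, a log2 fold change of 0.06 ± 0.20 (edgeR adjusted p = 0.857). Plpp3 was higher at 14 dpi than at 7 dpi by 0.71 ± 0.15 (edgeR adjusted p = 0.00542), and Plpp2 was lower by 0.55; over intact at 14 dpi, Plpp2 was higher by 0.73 and Lpar3 fell by 1.88.

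Of 5 tested regulators of S1pr1, 2 fell and none rose. Klf2, the flow-induced factor that activates S1pr1 transcription in T lymphocytes, averaged 219 CPM in intact nerve, 107 CPM at 7 dpi and 138 CPM at 14 dpi, with log2 fold changes over intact of -1.03 ± 0.21 at 7 dpi and -0.71 ± 0.22 at 14 dpi (edgeR adjusted p = 0.00097 and 0.046). Of 15 other endothelial G protein coupled receptors, 5 rose and 2 fell at 7 dpi. The apelin receptor Aplnr rose by 3.20, the chemokine receptor Cxcr4 by 3.17 and the thrombin receptor F2r by 2.36, and the scavenger receptor Ackr3 fell by 1.40. At 14 dpi over intact 5 of these receptors rose, among them Aplnr (2.37), the adenosine receptor Adora2b (1.73) and Cxcr4 (1.72), while Ackr3 fell by 1.41. At 14 dpi over 7 dpi Aplnr, Cxcr4 and F2r fell, by 0.84, 1.45 and 1.38, as Lpar4 did, and no gene of this list rose. In the KO comparison the smallest edgeR adjusted p over the 45 tested genes of the 5 lists was 0.165 (Cxcr4). Of these genes, 5 had an unadjusted edgeR p under 0.05, beside 1868 of all 16227 tested genes.

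**Figure D5:**
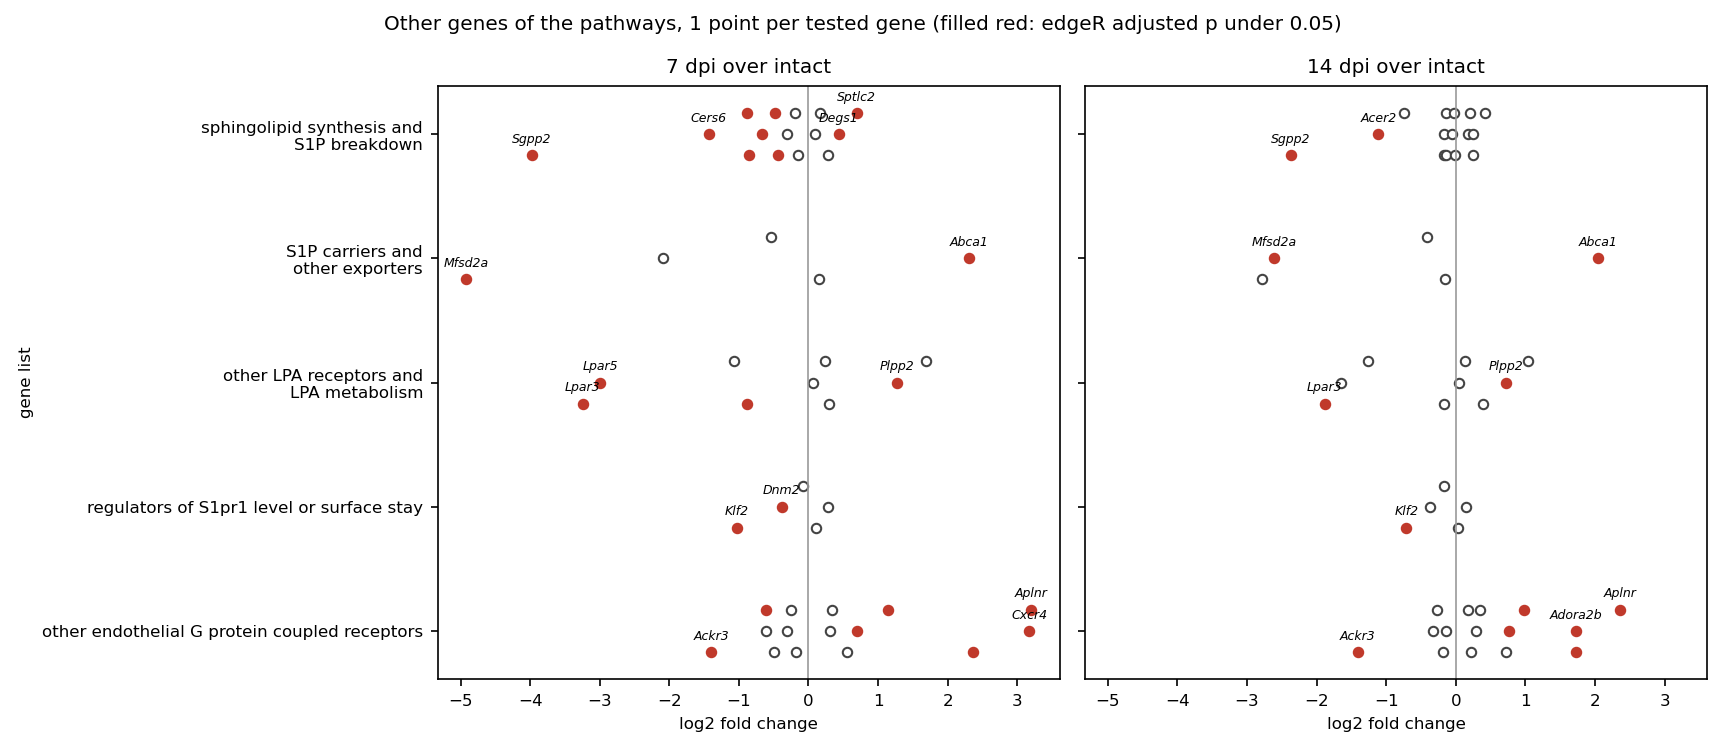
Log2 fold change (horizontal) of each tested gene of the 5 pathway lists (rows) for 7 dpi over intact and 14 dpi over intact; filled red points have an edgeR adjusted p under 0.05 and the outermost of them are named. At 7 dpi Mfsd2a and Sgpp2 lie farthest left, at -4.92 and -3.97, and Aplnr farthest right, at 3.20.

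The genes whose levels ran most like each receptor over the 14 Tomato libraries were taken from 10024 candidates by Pearson's r of log2 CPM. These values are descriptions over libraries that share groups, batches and cell makeup. Lpar4 ran most like Chst7 (r = 0.983), Nox4 (0.982) and Raet1e (0.981). S1pr4 ran most like Abcg2 (0.976), Cldn5 (0.965) and Stom (0.962), of which Abcg2 is an efflux pump and Cldn5 a tight junction protein of barrier endothelium. S1pr3 ran most like Lamb1 (0.968), Ptk7 (0.957) and Col28a1 (0.953). S1pr2 ran most like Cpxm1 (0.964), the fibrillar collagen gene Col1a2 (0.957) and Ctsk (0.951). Lpar1 ran most like Gfra4 (0.985), Olfr1033 (0.985) and Nbl1 (0.984). For S1pr1 the nearest was Anxa7 (0.925), for Lpar6 Pcm1 (0.928), for Spns2 Tmem88 (0.924), with Sptlc2 among its nearest 3 (0.918), and for Sphk1 Trim59 (0.858).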

How the data were processed

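The authors deposited raw counts per gene in whole numbers, 1 table for each experiment, and a further table of Cherry counts that they corrected for batch with ComBat-Seq, which was used here only as an alternative. Per the submitters' processing notes, Trimmomatic 0.39, STAR 2.5.3a and featureCounts 1.6.4 are named, as are the build mm10 (GRCm38) and, without a role, Cell Ranger 3.0.2. Strand setting, gene annotation version and treatment of multi-mapping reads are not stated in those notes. Gene coordinates are those of the deposited tables, and 10 of 11 genes (the 10 of the set and Plxnd1) had the same coordinates in GENCODE M21, Lpar1 being the exception.

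R 4.3.3 and edgeR 4.0.16 were run on the deposited counts. Genes were filtered by filterByExpr, scaled by TMM and tested by quasi-likelihood F tests (robust), adding batch as a term, in 1 fit of the 14 Tomato and 1 fit of the 6 Cherry libraries. The p-values were Benjamini-Hochberg adjusted over all tested genes with a threshold of 0.05. The SE of a fold change is its size divided by the square root of F. Gaps within a batch use log2 of CPM plus 1. Libraries of a group were not duplicates (chi-square of their counts per degree of freedom of 15.4 to 121 over 32 pairs). The workflow was tested on simulated data. All sample columns were mapped.

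The 10 genes, the pathway lists and the marker lists were chosen with earlier results of these data known. Named were all 10 genes, up to 3 called genes of each pathway list per direction and comparison plus Lpar2, Lpar3, Lpar5, Enpp2, Sphk2, Sgpl1, Plpp3, Apom and Klf2, the first 3 symbols of a marker list, markers at 0 counts, and, for each gene of the set, the 3 most correlated genes among those averaging 3 or more in log2 CPM. Outside this rule, the markers Dcn, Cd79a, Klrb1c and Ms4a1 were named with their values known. Alternatives were DESeq2 1.42.0 (test and size factors), library-size scaling, scaling to the endothelial markers, no low-count filter, no batch term, each batch alone, Y-linked genes as a covariate, the 2 groups alone, the ComBat-Seq counts, and leaving out each library. 1 pathway list is not reported here.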

Additional observations from a re-analysis of the deposited data

Results flagged for a closer look

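S1pr3 in intact replicate 2 stood apart from the other intact libraries at 31.1 CPM, against 14.3 to 17.98 CPM in the other 4, and that library also had the highest endothelial marker sum of its group. S1pr5 stood apart in 1 library of each Tomato group, at 1.09 CPM in intact replicate 5, 0.639 CPM in 7 dpi replicate 2 and 0.453 CPM in 14 dpi replicate 2, on 33, 13 and 12 counts. Of 30 gene and group pairs examined for a library far from the rest, 4 were found, and chance gives about 1 in 20. That rate does not hold for S1pr5, which had 0 counts in 2 or 3 libraries of each Tomato group, so that a few counts stand apart.

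The differences from intact nerve at 14 dpi and 7 dpi were themselves different for Lpar4, by -0.879 on the log2 scale, and for S1pr4, by 0.663. These are the 14 dpi over 7 dpi results given above and not a further test. Neither was called with either batch fitted alone, and the S1pr4 call ended when any one of 7 libraries was left out.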

How the results depend on the processing

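No paired analysis was possible because the labels give no replicate numbers. The counts of called genes of the set at 7 dpi and 14 dpi over intact and for KO over WT stayed within 1.5 times under every alternative. For 14 dpi over 7 dpi the count of 2 became 4 with endothelial scaling, the DESeq2 Wald test or the 2 groups alone, 1 with no batch term, 0 in either batch alone, and 1 to 2 without single libraries. Signs turned for values that were not called. With endothelial scaling these were S1pr1 at 7 dpi (-0.276), Spns2 at 14 dpi (-0.007), and S1pr3 (0.175) and Sphk1 (0.043) for 14 dpi over 7 dpi. Spns2 at 14 dpi turned in batch 1292 alone (-0.032). For 14 dpi over 7 dpi, S1pr3 turned with the Y-linked covariate (0.056) and in batch 1133 alone (0.031), and Lpar6 with DESeq2 size factors (-0.008), library size (-0.004), the DESeq2 Wald test (-0.007) and no batch term (-0.053). S1pr2 for KO over WT turned with library size (-0.028). Leaving out single libraries gave -0.217 to 0.030 for S1pr3 and -0.141 to 0.109 for Lpar6 (14 dpi over 7 dpi), and -0.064 to 0.134 for S1pr2, -0.126 to 0.067 for S1pr4, -0.060 to 0.233 for Lpar4 and -0.136 to 0.073 for Lpar6 (KO over WT). The cause was not tested.

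Counts over all genes moved by more than 1.5 times as follows. At 7 dpi over intact 6535 became 4122 with the Y-linked covariate and 2042 in batch 1133. At 14 dpi over intact 2439 became 795 in batch 1133 and 1500 in batch 1292. For 14 dpi over 7 dpi 2027 became 3238 with DESeq2, 1226 with no batch term, 366 in batch 1133, 726 in batch 1292 and as few as 1305 without a single library. For KO over WT 50 became 421 with DESeq2, 230 with no filter, 550 with the ComBat-Seq counts, 5 with no batch term and 6 to 40 without single libraries. No batch-by-group term of the set passed an adjusted p of 0.05 in edgeR at 7 or 14 dpi over intact; the smallest unadjusted p was 0.0302, for S1pr2 at 7 dpi. Counts of S1pr5 (at most 33) and Sphk1 (at most 140) limit what can be seen of them.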
